A study of Mus musculus with 2 samples.

Results

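Adenylyl cyclases make cyclic AMP (cAMP), and protein kinase A (PKA) is the kinase that cAMP switches on. The 10 genes described here belong to these groups: the cyclases Adcy1, Adcy2, Adcy3, Adcy5, Adcy8 and Adcy9, the PKA catalytic subunits Prkaca and Prkacb, and the PKA regulatory subunits Prkar1b and Prkar2b. They were taken by gene symbol from every gene and transcript table, joined by gene identifier, and made up 10 of 55450 annotated genes and 43 of 141767 annotated transcripts. The samples were hippocampus of female B6CASTF1/J mice at 14 days, a hybrid of the C57BL/6J and CAST/EiJ strains, with no treatment or genetic change named in the labels. Total RNA was sequenced in 1 group of 2 libraries, called replicate 1 and replicate 2, each made from 300 ng of RNA with ERCC spike-ins (synthetic control RNAs) and each listing 3 females. The labels describe the source as a layer of the hippocampus without naming it. They give both libraries the same donor identifier, though the females listed differ between the libraries. Depth was 33465393 expected counts (estimated reads, which need not be whole) in replicate 1 and 32879872 in replicate 2.

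A hormone or transmitter acting on a receptor coupled to the stimulatory G protein activates the membrane cyclases, and inhibitory G proteins oppose this. The cAMP formed binds the regulatory subunits of PKA, which then free the catalytic subunits to phosphorylate their targets. In the hippocampus this pathway is best known for its part in long-term synaptic plasticity and memory, where cyclases stimulated by calcium couple synaptic activity to cAMP and PKA.

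Levels are given in TPM, a level per length of transcript scaled to a fixed total per library, from the authors' gene tables, called the first quantification. A second deposited quantification of the same libraries was summed over transcripts for each gene. With 1 group there was no contrast to test: with 2 libraries an exact two-sided p cannot go under 0.5, and no p-value is given. Values are the mean ± SD over both libraries (n = 2). This SD measures only the spread between these libraries, in which biological and technical differences cannot be told apart. In whole tissue, fewer cells of a type and less RNA per cell cannot be told apart.

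All 10 genes, each with protein-coding transcripts, were detected (1 TPM or more in each library), against 26.7% of all annotated genes, noncoding ones included. The most abundant was Prkar1b, followed by Prkaca, Adcy1 and Prkacb, and the least abundant was Adcy8. The median level of the 10 genes was 30.5 TPM, against 14.9 TPM over the 12878 detected protein-coding genes. Prkar1b ranked 439 and Prkaca 739 among these coding genes by TPM, while Adcy8 ranked 10277. In the order of mean TPM (Prkar1b, Prkaca, Adcy1, Prkacb, Adcy9, Adcy2, Adcy5, Adcy3, Prkar2b, Adcy8), 3 of the 9 pairs of neighbours had libraries that did not overlap in either quantification. These were Prkar1b over Prkaca (ratios of TPM 1.45 in replicate 1 and 1.43 in replicate 2), Prkacb over Adcy9 (2.96 and 2.84) and Prkar2b over Adcy8 (4.01 and 3.77). The order of the other neighbours was not larger than the spread between libraries or depended on the quantification.

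**Figure D1:**
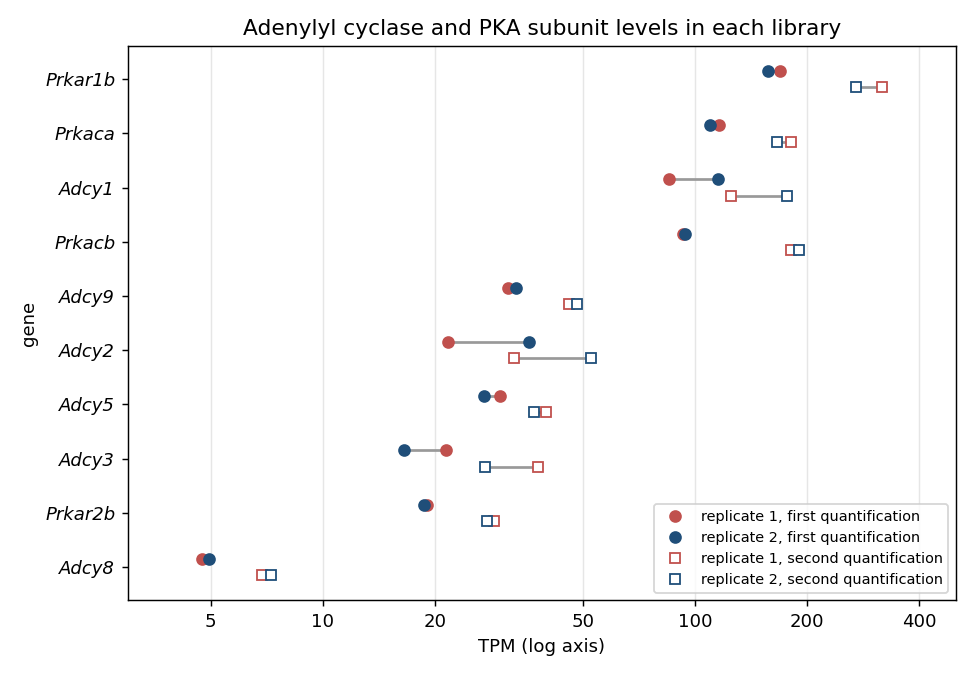
TPM (log axis) of each of the 10 genes in replicate 1 and replicate 2, as filled circles for the first quantification and open squares for the second, with grey lines joining the libraries. Prkar1b sits highest at 169 and 157 TPM and Adcy8 lowest at 4.75 and 4.96 TPM in the first quantification, and every gene is higher in the second.

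Among the cyclases, Adcy1, a neuronal form stimulated by calcium and calmodulin, was the most abundant. The gene (ENSMUSG00000020431.5) lies at chr11:7063489-7178506 on the plus strand of mm10. Adcy1 had 85.2 TPM in replicate 1 and 115 TPM in replicate 2, or 100.3 ± 21.4 TPM, and 125 and 176 TPM in the second quantification. It had the largest counts of the 10 genes, 23680 in replicate 1 and 31825 in replicate 2, over effective lengths of 12155 and 12126 bases. Its protein-coding transcript Adcy1-201 held 99.9% of the gene's TPM in replicate 1 and 99.6% in replicate 2.

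Over all 10 annotated cyclase genes (Adcy1 to Adcy10) the summed level was 218 TPM in replicate 1 and 251 TPM in replicate 2. Adcy1 held 39.2% of that sum in replicate 1 and 46.0% in replicate 2, or 42.6 ± 4.84%. The second quantification gave 42.6% as well, and the share of counts, which are not divided by length, was 64.7%. Adcy8, also a cyclase stimulated by calcium and calmodulin (ENSMUSG00000022376.8, chr15:64697084-64922296, minus strand), was far lower. Its level was 4.75 TPM in replicate 1, from 705 counts (exact Poisson 95% interval 654 to 759), and 4.96 TPM in replicate 2, from 725 counts (673 to 780). Such intervals cover counting error only, since reads are not independent molecules. Adcy1 stood at 17.9 times the TPM of Adcy8 in replicate 1 and 23.3 times in replicate 2, or 20.6 ± 3.78, so the order held in both libraries.

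Adcy9 is a widely expressed cyclase that forskolin, the plant compound that activates the other membrane cyclases, stimulates poorly. It lies at chr16:4287529-4420498 on the minus strand (ENSMUSG00000005580.11). Adcy9 had 31.4 TPM in replicate 1 and 33.0 TPM in replicate 2, and 14.4% and 13.2% of the summed cyclase TPM. Adcy5, the main cyclase of the striatum and one that inhibitory G proteins restrain (ENSMUSG00000022840.9, chr16:35154877-35305738, plus strand), had 29.9 TPM in replicate 1 and 27.1 TPM in replicate 2. Libraries of Adcy9 and Adcy5 lay close to each other for each gene.

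Adcy2, a cyclase that G protein beta-gamma subunits stimulate (ENSMUSG00000021536.7, chr13:68620043-68999541, minus strand), had 21.7 TPM in replicate 1 and 35.7 TPM in replicate 2. Its SD of 9.91 TPM on a mean of 28.7 TPM was the largest relative spread among the 10 genes. Adcy2 shares 3.83% of its 31-base words with the opposite strand of Gm35161, which had 12 counts in replicate 1 and 21 in replicate 2. Adcy3, the cyclase of olfactory signalling and of neuronal primary cilia (ENSMUSG00000020654.15, chr12:4133103-4213525, plus strand), had 21.5 TPM in replicate 1 and 16.5 TPM in replicate 2. Its annotated transcripts share 20.03% of their 31-base words with the opposite strand of Cenpo, a centromere protein gene at 2.12 TPM in replicate 1 and 2.37 TPM in replicate 2. Whether counting used strand is not stated in the labels or file headers. It is therefore not known whether reads of Adcy3 and Cenpo, or of Adcy2 and Gm35161, were told apart in the shared stretches.

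The PKA subunits together had a higher level per length than the cyclases. The 6 classical subunit genes (Prkaca, Prkacb, Prkar1a, Prkar1b, Prkar2a and Prkar2b) had a summed level of 619 TPM in replicate 1, against 587 TPM in replicate 2, which was 2.85 and 2.34 times the cyclase sum. By counts, not divided by length, the ratio was 1.04 in replicate 1 and 0.809 in replicate 2, so the direction in replicate 2 depended on the unit. Prkaca and Prkacb encode closely related catalytic subunits. Prkaca (ENSMUSG00000005469.10, chr8:83972993-83996443, plus strand) had 116 TPM in replicate 1 and 109.7 TPM in replicate 2. Prkacb (ENSMUSG00000005034.15, chr3:146729574-146812990, minus strand) had 92.8 TPM in replicate 1 and 93.7 TPM in replicate 2. The libraries of the pair did not overlap in this quantification, with Prkacb at 0.799 times Prkaca in replicate 1 and 0.854 times in replicate 2. In the second quantification the order turned: Prkacb had 181 TPM in replicate 1 and 189.6 TPM in replicate 2, Prkaca had 180.4 and 166 TPM, and the ratios were 1.00 and 1.14. Which catalytic subunit RNA was more abundant therefore depended on the quantification. Of the Prkacb level in the second, 48.0 TPM in replicate 1 and 56.8 TPM in replicate 2 lay on the retained-intron transcript Prkacb-205. The first quantification gave that transcript 1.39 and 2.09 TPM.

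Prkar1b, the type I regulatory subunit most prominent in brain (ENSMUSG00000025855.13, chr5:139017306-139150001, minus strand), had 169 TPM in replicate 1 and 157 TPM in replicate 2. It shares 8.27% of its words with the same strand of the overlapping gene Gm15672, which had 0.73 TPM in replicate 1 and 0.53 TPM in replicate 2. Prkar2b, a type II regulatory subunit that anchoring proteins hold near membranes and microtubules (ENSMUSG00000002997.15, chr12:31958476-32061296, minus strand), had 19.1 TPM in replicate 1 and 18.7 TPM in replicate 2. In the second quantification Prkar1b had 317 TPM in replicate 1 and 269.5 TPM in replicate 2, and Prkar2b 28.8 and 27.7 TPM. Prkar1b was at 8.85 times the TPM of Prkar2b in replicate 1 and 8.37 times in replicate 2, or 8.61 ± 0.338, and its libraries lay far above those of Prkar2b in both quantifications. With Prkar1a and Prkar2a included, type I genes held 90.1% of regulatory TPM in replicate 1 and 90.1% in replicate 2. Prkar1b alone held 41.1% and 40.9%, and Prkar2b 4.65% and 4.89%. The summed level of the catalytic subunits was 209 TPM in replicate 1 and 203 TPM in replicate 2, against 410.3 and 383 TPM for the regulatory subunits. Their ratio was 0.510 in replicate 1 and 0.531 in replicate 2, and these are ratios of RNA, not of protein.

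The catalytic subunit genes each have alternative coding starts, which change only the first part of the protein. The 5 sequences shown next are openings of coding sequences of Prkaca and Prkacb whose shares are given below. They were read from the GENCODE M21 transcripts, 5′ to 3′. Capitals mark the bases before the stretch that all forms of the gene share, and lower case the beginning of that stretch (1010 bases in Prkacb, 1011 bases in Prkaca). As background, the common forms carry a glycine directly after the initiator methionine, and this glycine is the site where the fatty acid myristate is attached.
Prkaca-201: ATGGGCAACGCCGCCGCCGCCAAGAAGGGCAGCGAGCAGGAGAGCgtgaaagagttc
Prkaca-202: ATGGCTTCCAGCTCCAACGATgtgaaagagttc
Prkacb-202: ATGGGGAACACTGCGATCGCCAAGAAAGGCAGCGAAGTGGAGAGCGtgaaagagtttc
Prkacb-203: ATGAATGtgaaagagtttc
Prkacb-204: ATGGGCTTGTtgaaagagtttc

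The second codon is GGC (glycine) in Prkaca-201, GCT (alanine) in Prkaca-202, GGG (glycine) in Prkacb-202, AAT (asparagine) in Prkacb-203 and GGC (glycine) in Prkacb-204. The coding sequences of Prkaca-201 and Prkacb-202 both have 1056 bases (351 codons before the stop). They are identical at 848 of the 1056 positions, or 80.3%, and their longest identical run is 34 bases. Of its 31-base words, Prkaca shares 2.97% with other genes, mostly the pseudogene Prkaca-ps1, which was listed at 0 TPM in both libraries, and Prkacb shares 0.046%.

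Nearly all Prkaca RNA was assigned to Prkaca-201 in the first quantification, at 99.8% of the gene's TPM in replicate 1 and 99.6% in replicate 2. Prkaca-202, whose start is that of the form known from sperm, had 0.224% in replicate 1 and 0.419% in replicate 2. These shares rested on 7.87 and 13.7 counts, with the authors' posterior SDs at 8.90 and 11.5 counts, so each lay less than 2 SDs from 0. The second quantification put Prkaca-202 at 8.95% in replicate 1 and 5.10% in replicate 2, from 304 and 157 estimated counts.

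Prkacb RNA was spread over more forms. Prkacb-202, the longer of the glycine-start forms, held 50.9% of the gene's TPM in replicate 1 and 50.4% in replicate 2. Prkacb-203, with the short asparagine start, held 18.4% and 17.2%, and Prkacb-204, also with a glycine start, held 11.2% and 10.3%. Prkacb-201, a form with 187 bases of its own and alanine as its second residue, had 0.970% in replicate 1 and 0.427% in replicate 2. The second quantification kept this order but gave lower shares, 38.4% and 38.1% for Prkacb-202, 14.96% and 12.6% for Prkacb-203, and 4.12% and 2.63% for Prkacb-204. It placed 42.5% of the gene in replicate 1 and 46.7% in replicate 2 on transcripts without a full coding sequence, against 18.6% and 21.7% in the first. The largest of these in the second quantification was the retained-intron transcript Prkacb-205, 919 bases long, at 48.0 TPM in replicate 1 and 56.8 TPM in replicate 2, against 1.39 and 2.09 TPM in the first. In the first it was Prkacb-208, 493 bases long, at 16.3% of the gene's TPM in replicate 1 and 19.1% in replicate 2. By counts Prkacb-208 held only 1.86% and 2.24%. By counts, Prkacb-202 held 62.4% in replicate 1 and 64.0% in replicate 2 of the first quantification.

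**Figure D2:**
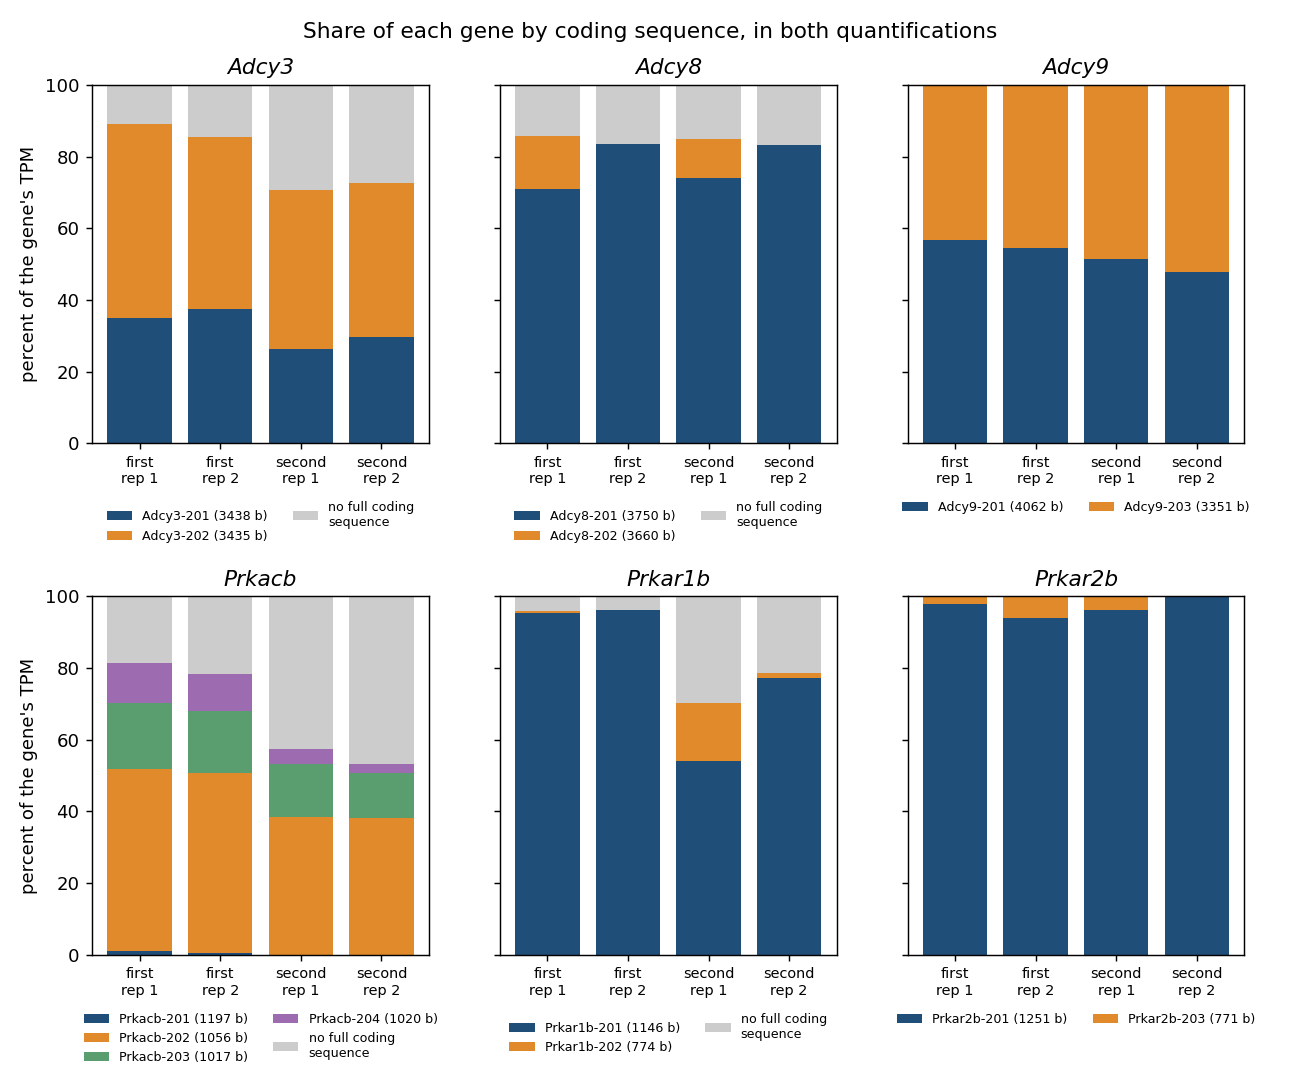
Percent of each gene's TPM (linear axis from 0 to 100) by coding sequence, summing transcripts that share one, for 6 of the 7 genes with more than 1 coding sequence (all but Prkaca); bars run from the first quantification (replicate 1, replicate 2) to the second. Adcy9 is split nearly evenly in all 4 bars, and the grey share without a full coding sequence is larger in the second quantification for Adcy3, Prkacb and Prkar1b.

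The starts of Prkaca-201 and Prkaca-202 also lie in unlike sequence. RefSeq lists 18 start windows for 9 of the 10 genes on GRCm38.p6, each running from 250 bases before to 50 bases after the start. The 250 upstream bases of the Prkaca pair are shown because the transcripts they precede stood far apart in level in both quantifications, with CG dinucleotides in capitals and both read 5′ to 3′ on the plus strand. The window before Prkaca-201 is chr8:83972728-83972977, upstream of the gene, and that before Prkaca-202 is chr8:83976633-83976882, in an intron of Prkaca-201.
Prkaca-201: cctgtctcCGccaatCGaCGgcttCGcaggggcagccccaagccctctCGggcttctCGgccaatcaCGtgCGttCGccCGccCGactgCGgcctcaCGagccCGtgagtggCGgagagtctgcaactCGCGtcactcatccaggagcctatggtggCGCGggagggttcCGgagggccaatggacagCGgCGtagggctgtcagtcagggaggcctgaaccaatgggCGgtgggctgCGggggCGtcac
Prkaca-202: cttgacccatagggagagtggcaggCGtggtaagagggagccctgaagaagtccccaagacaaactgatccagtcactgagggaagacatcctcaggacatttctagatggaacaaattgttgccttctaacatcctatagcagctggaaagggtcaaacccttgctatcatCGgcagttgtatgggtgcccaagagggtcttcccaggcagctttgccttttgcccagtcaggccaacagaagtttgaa

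The full 300-base window of Prkaca-201 held 31 CG dinucleotides and that of Prkaca-202 held 2, against a median of 7 (quartiles 3 and 20) over all 32851 RefSeq windows, of which 94.6% held at least 1. In Prkacb, the window of Prkacb-202 held 41, that of Prkacb-203 held 5 and that of Prkacb-201 held 2. In both catalytic genes the window with the most CG dinucleotides lay at the transcript with the highest level. Over all 18 windows of the 9 genes the median was 31.5. The cAMP response element TGACGTCA, which reads the same on both strands, was in 0 of the 18 windows, against 1.79% of all windows. Its half-site TGACG, searched on both strands and also present in any full element, was in 4 of the 18 windows, or 22.2%, against 20.8% of all windows.

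The other genes with more than 1 full coding sequence were Adcy3, Adcy8, Adcy9, Prkar1b and Prkar2b. Adcy9-203 starts at an ATG inside the coding sequence of Adcy9-201 and is 711 bases shorter, with 3351 against 4062 bases. The sequence around that internal start is shown with its ATG in capitals, in the coding sequence of Adcy9-201.
Adcy9-203: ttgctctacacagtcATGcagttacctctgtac

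The Adcy9-203 coding sequence held 43.3% of the gene's TPM in replicate 1 and 45.5% in replicate 2. The Adcy9-201 coding sequence, shared by Adcy9-201 and Adcy9-202, held the other 56.7% and 54.5%. The second quantification gave Adcy9-203 48.7% in replicate 1 and 52.1% in replicate 2, so the forms were close to even in both. How the longer coding sequence divided between its own transcripts was not settled: the first quantification gave Adcy9-201 0.01 and 0 TPM, with posterior SDs of 283 and 193 counts, and the second gave it 23.4 and 13.7 TPM.

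The coding sequence of Adcy3-201 has 3 bases more than that of Adcy3-202, shown in capitals in their surroundings. They repeat the CAG that follows, so either copy could be the extra one, and as printed they span 2 codons of the reading frame.
Adcy3-201: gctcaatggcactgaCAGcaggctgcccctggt

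The coding sequence without those bases held the larger share in both libraries, 54.1% of the gene's TPM in replicate 1 and 47.9% in replicate 2, against 34.9% and 37.4% for the one with them. The second quantification kept this order, with 44.5% in replicate 1 and 43.0% in replicate 2 against 26.2% and 29.7%. Transcripts of Adcy3 without a full coding sequence held 11.0% and 14.7% in the first quantification and 29.4% and 27.3% in the second.

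Adcy8-202 lacks a stretch of 90 bases that Adcy8-201 carries, shown in capitals with the shared bases on each side.
Adcy8-201: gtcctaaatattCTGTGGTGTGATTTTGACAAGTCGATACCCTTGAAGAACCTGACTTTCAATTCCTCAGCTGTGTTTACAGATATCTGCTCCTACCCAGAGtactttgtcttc

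Adcy8-201 held 71.0% of the gene's TPM in replicate 1 and 83.4% in replicate 2. Adcy8-202 held 14.7% in replicate 1, from 109 counts with a posterior SD of 68.7, and 0% in replicate 2, from 0 counts with a posterior SD of 34.4. The count in replicate 1 was less than 2 posterior SDs from 0. The retained-intron transcript Adcy8-203 held 14.3% in replicate 1 and 16.6% in replicate 2, and 15.2% and 16.7% in the second quantification, so its share varied least of the 3 transcripts.

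The full coding sequence of Prkar1b (1146 bases, Prkar1b-201 and Prkar1b-203) held 95.4% of the gene's TPM in replicate 1 and 96.2% in replicate 2. The second quantification gave it 54.1% and 77.3%, with 29.7% in replicate 1 and 21.5% in replicate 2 on the fragment Prkar1b-204. Prkar1b-202, with a coding sequence of 774 bases, held 16.2% in replicate 1 and 1.23% in replicate 2 there. The full coding sequence of Prkar2b (1251 bases) held 97.9% in replicate 1 and 94.0% in replicate 2. In Adcy5, Adcy5-201 held 96.2% and 97.9%, and Adcy2 has a single annotated transcript. Prkar2b, Adcy5 and Adcy2 thus had nearly all of their RNA on 1 coding sequence in both quantifications, while Prkar1b had so in the first.

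The libraries were then compared with each other, as replicate 1 over replicate 2 on counts scaled by TMM (a scaling that sets the bulk of genes equal). Over the 14708 genes with enough signal, 21.1% were over 1.2-fold apart, and 2 of the 10 genes were, Adcy1 and Adcy2. Both were lower in replicate 1. The median log2 ratio of the 10 genes was -0.08, against -0.01 over all genes, and the median size of the log2 ratio was 0.12 in both. A share of 2 in 10 is near the background, so the 10 genes as a group varied between the libraries about as other genes did.

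Adcy2 had 2042 counts in replicate 1 and 3340 in replicate 2, a log2 ratio of -0.82, or 0.566-fold (exact binomial 95% interval 0.536 to 0.598). Of all genes, 1.69% lay at least as far apart in either direction. Adcy1 had a log2 ratio of -0.54, or 0.689-fold (0.678 to 0.701), and 5.13% of genes lay at least as far apart. Both were lower in replicate 1 under every scaling tried and in the second quantification, with log2 ratios between -0.82 and -0.69 for Adcy2 and between -0.54 and -0.43 for Adcy1. Adcy3 ran the other way, 1.17-fold higher in replicate 1 (1.10 to 1.25), and passed 1.2-fold only when scaled by total counts, by spike-ins or as TPM. Its log2 ratio lay between 0.22 and 0.38 over all settings.

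The remaining genes were closer. Adcy9 had a log2 ratio of -0.18, Adcy8 -0.15, Prkar2b -0.09, Prkacb -0.07, Prkaca -0.02, Prkar1b 0.00 and Adcy5 0.01. The log2 ratios of the 4 PKA subunits all lay between -0.09 and 0.00, and both genes past 1.2-fold were cyclases. Whether cyclases and PKA subunits differ in spread was not tested.

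**Figure D3:**
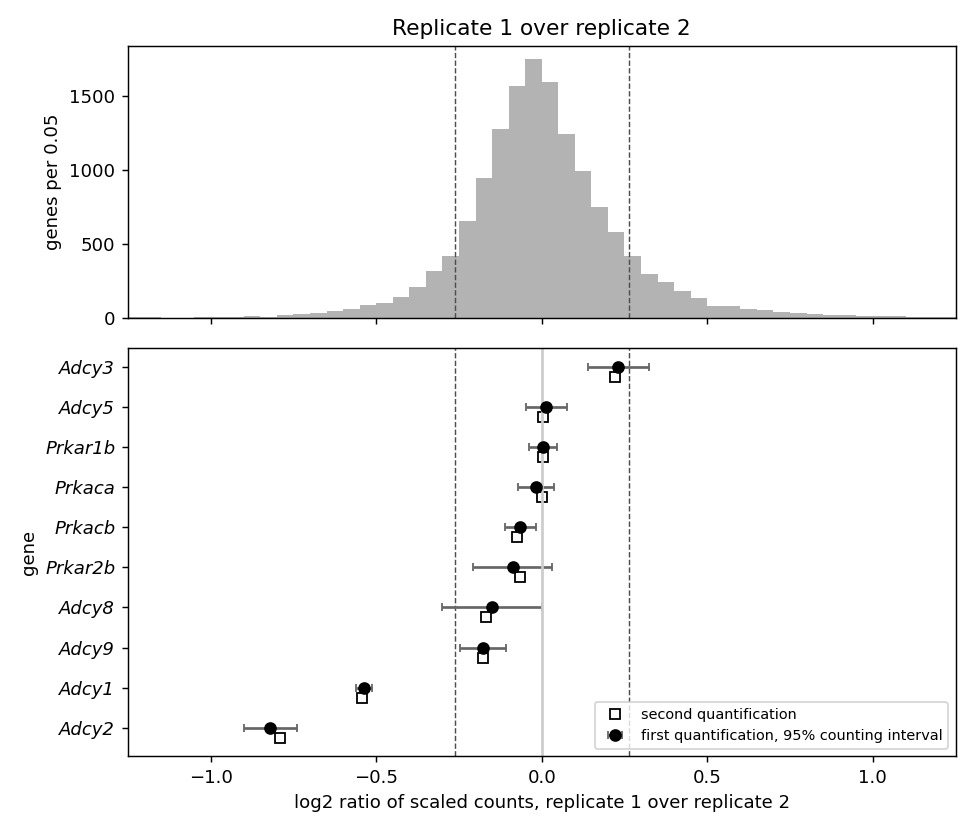
Upper panel, number of genes by log2 ratio of scaled counts, replicate 1 over replicate 2, in steps of 0.05; lower panel, the same ratio for the 10 genes as filled circles with 95% counting intervals (first quantification) and open squares (second). Dashed lines mark 1.2-fold; Adcy1 at -0.54 and Adcy2 at -0.82 lie outside them and the other 8 genes inside, while 86 genes fall outside the plotted range.

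Some cell-type markers also moved between the libraries. Over 1.2-fold apart were 3 of 3 dentate granule, 1 of 3 CA1, 1 of 3 CA3 and 1 of 4 interneuron markers. The numbers were 2 of 4 for astrocytes, 2 of 3 for microglia, 0 of 4 for oligodendrocytes and 0 of 3 for endothelium. For choroid plexus 8 of 8 were, for meninges 4 of 4, for striatum 4 of 6 and for thalamus 2 of 4. Among all genes the share was 21.1%. All 9 markers of dentate granule, CA1 and CA3 neurons, the defining cells of the labelled tissue, were detected. The 3 dentate granule cell markers (Prox1, C1ql2 and Dsp) were all lower in replicate 1, with a summed 66.3 TPM in replicate 1 and 85.3 TPM in replicate 2. Of the 3 markers of CA1 pyramidal cells, 2 were lower in replicate 1 (156 and 173 TPM summed), and all 3 markers of CA3 pyramidal cells were higher (141 and 119.6 TPM). Of 4 astrocyte markers 3 were lower in replicate 1 on scaled counts and 2 in TPM (1496 and 1744 TPM summed), and all 3 microglial markers were lower (78.4 and 91.5 TPM). All 8 choroid plexus markers were higher in replicate 1, with 1437 TPM in replicate 1 and 9.86 TPM in replicate 2, and so were all 4 meningeal markers (69.5 and 46.6 TPM). Most of the choroid plexus sum was Ttr, at 1375 TPM in replicate 1 and 5.62 TPM in replicate 2. Only 3 of the 8 choroid plexus markers reached 1 TPM in both libraries. Markers of striatum, where Adcy5 is strongest, had a summed level of 33.1 TPM in replicate 1 and 27.7 TPM in replicate 2, with 6 of 6 detected. Markers of thalamus had a summed level of 48.1 TPM in replicate 1 and 40.9 TPM in replicate 2, with 4 of 5 detected (Prkcd highest, at 22.1 and 18.4 TPM) and Gbx2 at 0.06 and 0.02 TPM. On scaled counts 3 striatal markers were higher in replicate 1 and 3 lower. Of the 4 thalamic markers with enough signal, 2 were higher and 2 (Prkcd and Rora) lower. The part of these shifts in the Adcy1 and Adcy2 differences was not tested.

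Between quantifications, 12.4% of 15452 genes differed over 2-fold in the same direction in both libraries, and 0 of the 10 genes did. All 10 were lower in the first quantification in both libraries. The median log2 ratio of first over second was -0.59 in replicate 1 and -0.58 in replicate 2 for the 10 genes, against -0.62 and -0.62 over all genes. The shift of the 10 genes was thus close to that of the tables as a whole. Nuclear protein-coding genes held 44.9% of all TPM in replicate 1 and 42.9% in replicate 2 of the first quantification, and 74.0% and 70.8% of the second. Prkacb was farthest from the second quantification, at -0.96 in replicate 1 and -1.02 in replicate 2, and Adcy5 was nearest, at -0.41 and -0.45.

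The other genes of the pathway were set beside the 10 genes by role, with the highest members of each list named and, for most, the lowest. For the counts past 1.2-fold in these lists, the share over all genes was 21.1%. Of the 4 other cyclases 3 were detected. Adcy6, a cyclase inhibited by calcium like Adcy5, had 19.6 TPM in replicate 1 and 15.6 TPM in replicate 2. Adcy4 had 1.83 and 1.36 TPM, and Adcy10, the soluble cyclase that bicarbonate activates, had 0.21 and 0.13 TPM. Adcy6 thus lay close to Adcy3 and Prkar2b, while the others lay under Adcy8. In this list 2 of 3 genes (Adcy6 and Adcy7) were over 1.2-fold apart, and all 3 were higher in replicate 1, the direction of Adcy3 and not of Adcy1 and Adcy2.

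Prkar1a, the widely expressed type I regulatory subunit, had 201 TPM in replicate 1 and 188 TPM in replicate 2, above Prkar1b in the first quantification. In the second, Prkar1b held 47.8% of regulatory TPM in replicate 1 and 45.2% in replicate 2, against 41.5% and 43.9% for Prkar1a, so the order of the type I pair depended on the quantification. Prkar2a, the type II partner of Prkar2b, had 21.5 and 19.3 TPM, and Prkx, a related kinase, had 6.37 and 5.61 TPM. None of these 3 genes was over 1.2-fold apart. Pkia, which encodes a peptide inhibitor of the catalytic subunits, had 126 TPM in replicate 1 and 128 TPM in replicate 2, a level like that of Prkaca. Pkig had 30.8 and 36.7 TPM and Pkib 4.54 and 4.19 TPM. All 3 inhibitors were lower in replicate 1 on scaled counts, though Pkib was higher in TPM, and Pkig was the 1 of 3 past 1.2-fold.

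Upstream, all 7 G protein alpha subunits were detected, with a median of 70.5 TPM. Gnas, the stimulatory subunit, had 856 TPM in replicate 1 and 742 TPM in replicate 2, and Gnao1, an abundant neuronal subunit of the inhibitory class, had 353 and 345 TPM. Gnai3, another inhibitory subunit, was lowest at 19.3 and 16.9 TPM, and 0 of 7 were over 1.2-fold apart. Of 10 receptors coupled to the stimulatory G protein, 9 were detected, with a median of 3.31 TPM, the lowest of the lists but for the other cyclases. Adcyap1r1, the receptor for the peptide PACAP, had 58.3 TPM in replicate 1 and 63.2 TPM in replicate 2. Htr4, a serotonin receptor, had 7.83 and 7.67 TPM. Of the 9 receptors with enough signal 6 were over 1.2-fold apart, against 21.1% of all genes. In replicate 1, 2 of them were higher and 4 lower on scaled counts, and not every one of these directions held in TPM. Each of these 6 rested on 64 to 435 counts a library.

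Downstream, 15 of 16 phosphodiesterases, which break down cyclic nucleotides, were detected with a median of 20.1 TPM, and 2 of 15 (Pde1a and Pde1b) were over 1.2-fold apart. Pde2a had 104 TPM in replicate 1 and 109 TPM in replicate 2, Pde1a 62.1 and 46.3 TPM, and Pde4c 0.35 and 0.19 TPM. All 11 A-kinase anchors, which tether PKA through its regulatory subunits, were detected, with a median of 26.1 TPM and 0 of 11 over 1.2-fold apart. Map2, the dendritic microtubule protein that binds type II PKA, had 411 TPM in replicate 1 and 452 TPM in replicate 2, Akap11 had 73.2 and 74.4 TPM, and Akap12 6.91 and 6.52 TPM. The anchor Map2 thus stood far above Prkar2b, the type II subunit among the 10 genes, in both libraries.

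The exchange factors that cAMP activates without PKA were both detected: Rapgef4 had 90.3 TPM in replicate 1 and 88.6 TPM in replicate 2, and Rapgef3 had 17.0 and 13.3 TPM, which was over 1.2-fold apart. All 8 CREB factors and partners, which carry the PKA signal to transcription, were detected with a median of 15.6 TPM, and 1 of 8 (Creb1, the factor itself) was over 1.2-fold apart. Crtc1, a CREB coactivator, had 58.8 TPM in replicate 1 and 58.0 TPM in replicate 2, Crebbp, an acetyltransferase that binds CREB, 34.9 and 32.5 TPM, and Atf1 7.09 and 7.32 TPM. The levels of these nuclear partners all lay under those of Prkaca and Prkacb in both libraries, with Crtc1 between Adcy9 and Prkacb.

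**Figure D4:**
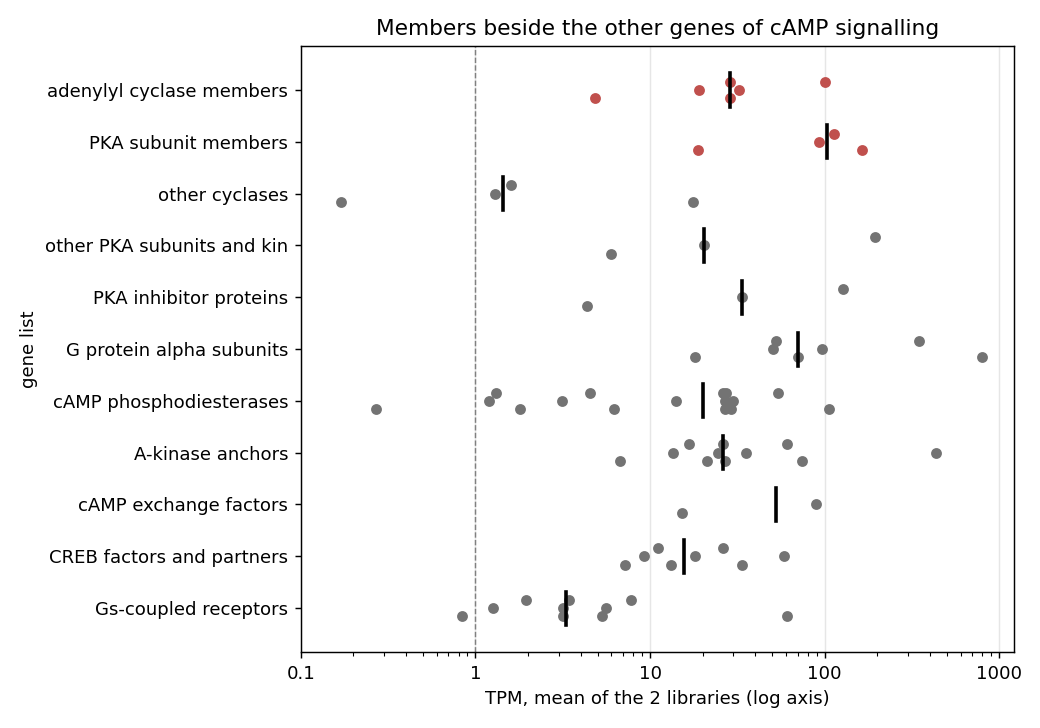
Mean TPM of the 2 libraries (log axis) of each gene, with the 6 cyclases and 4 PKA subunits in red and the other lists in grey; black bars are list medians and the dashed line is 1 TPM. The PKA subunits and G protein alpha subunits (median 70.5 TPM) lie to the right, and the stimulatory receptors (median 3.31 TPM) and other cyclases to the left.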

How the data were processed

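The authors quantified total RNA-seq of both libraries on mm10 with GENCODE M21, as the notes beside the tables state. The first quantification has the layout of RSEM output, with deposited expected counts, TPM and, for each transcript, the percent of its gene's TPM. The authors' posterior SD of a count was used as deposited. The second has the layout of kallisto output, with deposited estimated counts and TPM that were summed per gene here. Spike-ins enter the deposited TPM. Aligner, tool versions and use of strand were not given in the sources used here.

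Symbols came from the transcript names and coordinates from GENCODE M21. Expected counts were rounded and scaled by TMM in edgeR 4.0.16 (R 4.3.3) over all annotated genes, which took 33321573 counts in replicate 1 and 32740837 in replicate 2. Spike-ins took 0.430% and 0.423%. Ratios of replicate 1 to replicate 2 used a prior count of 0.5 and genes averaging 1 TPM or more with 50 or more summed counts. Quantifications were compared on log2(TPM + 0.1). Ratios have exact binomial intervals at 95%, which cover counting error only. Transcripts with identical coding sequences were summed. Start windows are from RefSeq (GRCm38.p6). Scripts used Python 3.11.15, numpy 2.4.6, pandas 2.3.3, scipy 1.17.1 and matplotlib 3.10.9, and the ratio step was tested on simulated data. Alternatives were DESeq2 1.42.0 size factors, total-count and spike-in scaling, log2 TPM, other prior counts, filters and thresholds, the second quantification, TPM over coding genes and leaving out each library. All 10 genes are named, and in each pathway list the highest 2 and lowest 1 by mean TPM, with Adcy7, Pde1b and Creb1 added after their values were seen. A gene that this rule would name is not reported here. The 10 genes, lists and alternatives were chosen with earlier results of these data known.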

Additional observations from a re-analysis of the deposited data

How the results depend on the processing

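No paired analysis was possible because there is only 1 group. The number of genes detected was 10 in the second quantification and 9 at a threshold of 5 or 10 TPM, where Adcy8 dropped out. The Adcy1 share of cyclase TPM was 42.6% in the second quantification and 64.7% by counts. Prkacb over Prkaca was 1.07 in the second quantification and 1.29 by counts, against 0.826 as reported, so its direction depended on the setting. Prkar1b over Prkar2b was 10.4 and 8.04, catalytic over regulatory subunits 0.571 and 0.493, and Adcy1 over Adcy8 was 38.7 by counts. Counts are not divided by length, and no other cause of these shifts was tested. Leaving out a library gave ranges of 39.2% to 46.0% for the Adcy1 share, 0.799 to 0.854 for Prkacb over Prkaca, 8.37 to 8.85 for Prkar1b over Prkar2b, 17.9 to 23.3 for Adcy1 over Adcy8 and 0.510 to 0.531 for catalytic over regulatory subunits. The median log2 ratio of replicate 1 to replicate 2 ran from -0.08 to 0.01 over the scalings, turning positive with total counts (0.01, all genes 0.07) and on log2(TPM + 0.1) (0.01, all genes 0.09, against -0.01 as reported). At 1.5-fold, 1 of the 10 genes (Adcy2) was past the threshold, against 4.18% of all genes. Without a filter on low values 2 were past 1.2-fold, against 48.8% of all genes. The number over 2-fold apart between quantifications was 0 to 1 when a library was left out: without replicate 1, Prkacb passed. All 10 levels were higher in the second quantification and over coding genes alone. The share on the leading coding sequence moved beyond the spread between libraries for 7 of 10 genes in the second quantification, upward for 1. Prkaca-202 had 7.87 and 13.7 counts in the first quantification and 304 and 157 in the second, and the cause was not tested.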
